A study of Cricetulus griseus with 24 samples.

Results

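Sorting nexins and vacuolar protein sorting (Vps) proteins steer membrane traffic between endosomes, lysosomes, the Golgi and the cell surface. The genes described here are those whose symbol begins with Snx or Vps followed by a number. There were 60 such rows among 26776 named genes in the count tables, and 56 of them, 25 Snx and 31 Vps genes, reached a mean of at least 1 CPM (ppm of all fragments counted in named genes) in at least 1 of 6 groups of libraries. The 4 rows below that level were Snx22, Snx10, Snx31 and Snx20, whose highest group means were 0.324, 0.0319, 0.0289 and 0.0186 CPM. The member nearest to the threshold was Snx24, at 1.27 CPM in its highest group and at 1 CPM or more in 4 of 6 groups, followed by Vps37d at 4.49 and Snx15 at 9.49 CPM. The other members were above the threshold in all 6 groups. All 56 passed the filter on low counts in both experiments. The genes known elsewhere as Vps50 and Vps26c carry the older symbols Ccdc132 and Dscr3 in these tables and were not chosen by the rule.

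RNA was sequenced from LR73 cells, a hamster (Cricetulus griseus) fibroblast-like line that engulfs dying cells, in 24 libraries. In the first experiment, 4 libraries each came from phagocytes alone (control), phagocytes given cytochalasin D, phagocytes given apoptotic Jurkat cells, and phagocytes given both. Jurkat is a human T cell line, here killed by ultraviolet light, and these dying cells are called corpses below. The second experiment used LR73 phagocytes labelled as wildtype or Slc12a2-deficient, 4 libraries each. They were kept with corpses for 2 h and sorted for the acid-sensitive dye CypHer5E, so that both genotypes had taken up corpses. Not given in the sources used here were how long the co-culture of the first experiment lasted, how the Slc12a2 deficiency was made and whether the deficient cells were 1 clone. The libraries of a group are called biological replicates, with no word on separate cultures, so p-values measure the spread between these libraries, which may be technical in part.

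Sorting nexins share a PX domain that binds phosphoinositide lipids on endosomes. Many add a BAR domain that bends membrane into tubules, and the SNX9 family (SNX9, SNX18, SNX33) adds an SH3 domain that binds dynamin and activators of actin assembly. Retromer (VPS26, VPS29, VPS35) sorts receptors out of endosomes with sorting nexins. CORVET and HOPS are tethers that bring early and then late endosomes to fusion with lysosomes, the route that a phagosome with a corpse follows as it matures. ESCRT complexes bud cargo into endosomes and repair membranes, and the ATPase VPS4 takes them apart. VPS13 proteins carry lipids between membranes, and GARP and EARP tether vesicles at the Golgi and at recycling endosomes. Cytochalasin D caps actin filaments and blocks engulfment. Slc12a2 is a cotransporter of sodium, potassium and chloride.

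Each library of the first experiment held between 8272232 and 18911353 fragments in named genes, and each of the second between 22758587 and 28450594, so that 3 fragments correspond to at most 0.363 CPM. Levels below are CPM scaled by TMM factors, as mean ± SD over 4 libraries. Slc12a2 itself was at 96.8 ± 5.41 CPM in wildtype and 24.7 ± 1.59 CPM in Slc12a2-deficient libraries (n = 4 each). Of 11 fibroblast markers in the table, 6 or 7 reached 1 CPM in each group, and Col1a1, Col1a2, Thy1 and Lum stayed under 1 CPM in every group. The 8 myeloid markers together held 1.77 to 3.44 ppm of fragments (the same scale as CPM). The 15 T cell markers summed to between 11.2 and 15.9 ppm of fragments in the libraries without corpses and to between 19 and 25.2 with them, and 4 of the 15, against 10 or 11, were at 0 in every library of a group. Cd2, Cd3g and Cd5 were at 0 in all groups. In the second experiment that sum ran from 14.4 to 15.7 in wildtype and from 5.45 to 7.52 in deficient libraries. Nearly all of it was Lat (mean 10.9 in wildtype, 4.62 in deficient) and Cd28 (3.94 and 1.35), which phagocytes without corpses also held in the first experiment (11.2 and 1.32). Lck, Zap70 and Lef1, at 3.23, 3.37 and 1.7 with corpses in the first experiment, were at 0.0589, 0 and 0 in wildtype and at 0.0493, 0 and 0.00879 in deficient libraries. The part of Jurkat RNA in the results below was not tested, and fewer cells of a type cannot be told apart from less RNA per cell. Control 4, cytochalasin D 1 and corpses with cytochalasin D 4 lay at the ends of the third principal component of the first experiment, which held 10.4% of the variance.

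The 56 genes together took 4261 ± 53.4 ppm of fragments in control, 4389 ± 141 with cytochalasin D, 4036 ± 72.8 with corpses and 4476 ± 67.0 with both (n = 4 each). In the second experiment they took 4604 ± 40.9 in wildtype and 4837 ± 125 in deficient phagocytes. Per kilobase of exon, which allows levels of different genes to be compared, Snx3, a PX-only sorting nexin that works with retromer, stood first in control at 188 ± 5.45 CPM per kb. It was followed by Snx17, a FERM-domain nexin that recycles integrins, at 131 ± 5.04, Vps25 of ESCRT-II at 99.9 ± 2.17 and Snx5 of the retromer-linked SNX-BAR group at 89.1 ± 3.94. The lowest were Vps13d at 4.63, Vps9d1 at 4.05, Vps37d at 2.44 and Snx24 at 0.601 CPM per kb. Libraries of a group lay close together: the median coefficient of variation over the 56 genes was 5.52% in control, 3.7% in wildtype and 6.71% in deficient libraries. The widest spread was that of Snx24, the rarest member, at 55.6% with cytochalasin D, and its log2 fold change with the drug (-0.81 ± 0.36, edgeR adjusted p = 0.107) was not called.

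Corpses and cytochalasin D each moved some of these genes, mostly by less than 1.5-fold. A gene is called changed where the adjusted p of edgeR's quasi-likelihood test, over all genes, was under 0.05. With corpses alone, 1 of 56 rose and 9 fell, 17.9% against 13.7% of the 13106 genes tested, and the median log2 fold change was -0.07 against 0.00 over all genes. Cytochalasin D alone raised 18 (13.5% of all genes rose) and lowered 3 (12.8% fell), 37.5% against 26.3% in all, with a median of 0.09 against 0.01. With cytochalasin D present, corpses raised 5 (4.82% of all genes rose) and lowered 3 (3.79% fell), 14.3% against 8.61% in all. With corpses present, cytochalasin D raised 27 and lowered 3, 53.6% against 32.5%, with a median of 0.18 against 0.00. The effect of corpses differed between cytochalasin D and no drug for 6 genes, all toward higher values (3.03% of all genes had such a difference), 10.7% against 4.56% in either direction. Between genotypes 13 were higher and 10 lower in deficient phagocytes, 41.1% against 42.5% of 13050 genes, so that the share there was close to the background. The libraries of the compared groups did not overlap for 12 of the 56 genes with corpses alone (19.6% of all genes). With the drug alone the count was 18 (24.3% of all genes), and with corpses on top of the drug 8 (13.5% of all genes). It was 29 with the drug in the presence of corpses (32.1% of all genes) and 21 between genotypes (39.6% of all genes). These comparisons share libraries within the first experiment, so their counts are not independent of each other. The call of cytochalasin D with corpses present took 16.4% of all genes upward and 16.1% downward, beside 27 and 3 of the 56. Without the 3 libraries at the ends of the third principal component, the calls of the 5 comparisons of the first experiment numbered 8, 16, 4, 25 and 1, in the order given, and the 1 gene left for the difference of corpse effects was Snx18. A total of 11 genes (Snx2, Snx12, Snx14, Snx15, Snx19, Snx24, Vps25, Vps28, Vps33b, Vps36 and Vps51) was called in none of the 6 comparisons.

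**Figure D1:**
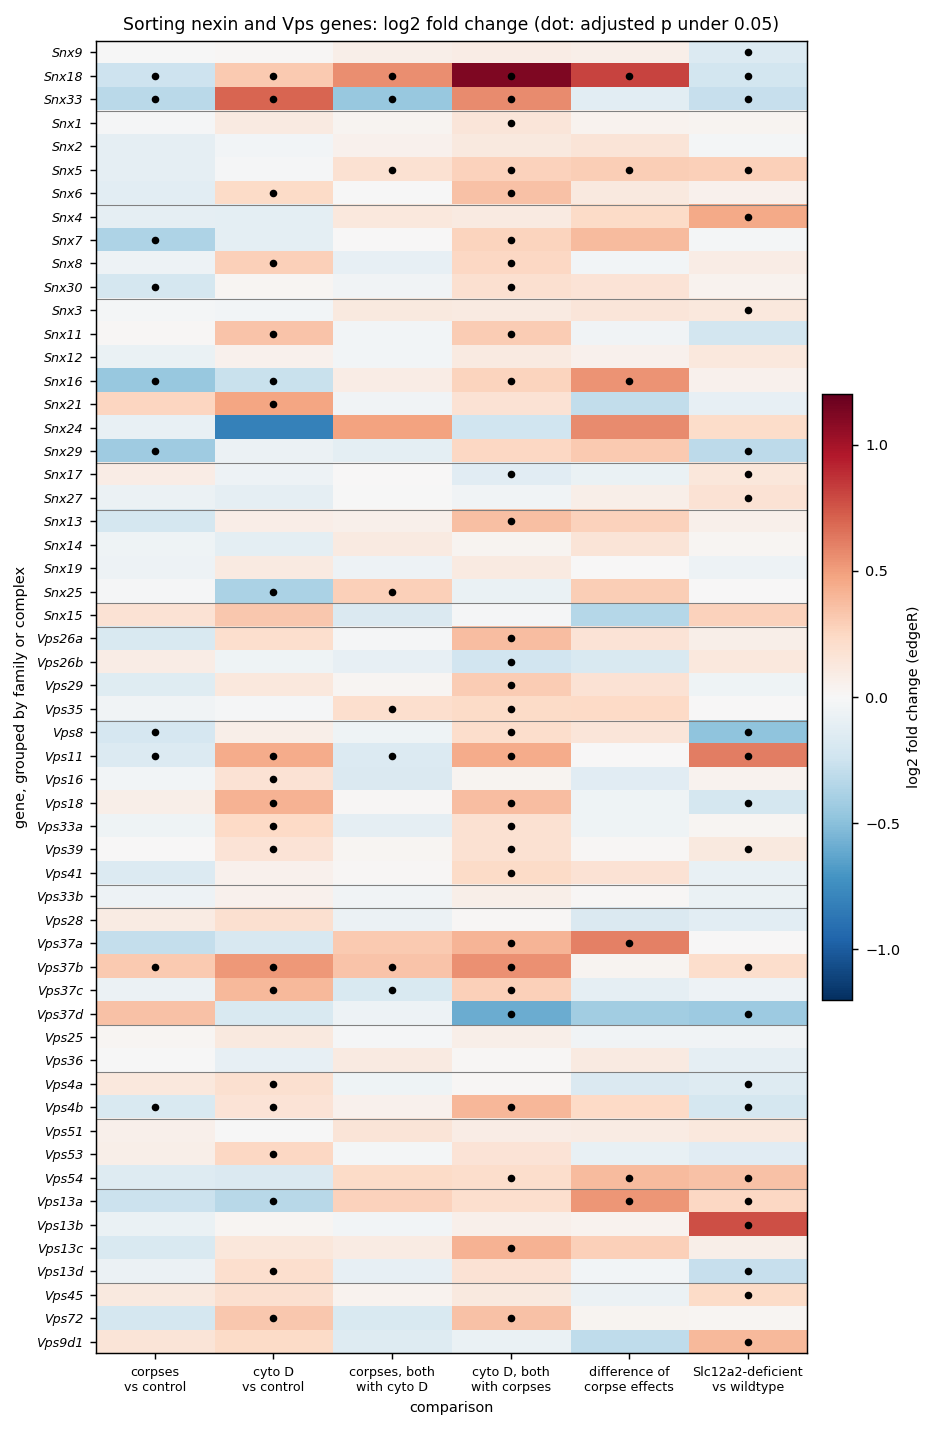
Log2 fold change (edgeR, colour) of the 56 genes (rows, grouped by family or complex) in the 6 comparisons (columns). A dot marks an adjusted p under 0.05: Snx18 carries a dot in all 6 columns, and the column for cytochalasin D with corpses holds 30 dots, 27 of them on higher values.

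Snx18, which binds dynamin and remodels endocytic and autophagic membranes, was the member with the largest change and was called in every comparison. It lies on scaffold NW_003614351.1 at 250119 to 275401, minus strand, in the authors' annotation, with 2 exon records and 3646 bases of exon. Its level was 59.0, 56.2, 59.4 and 57.1 CPM in the 4 control libraries, 67.6, 76.2, 70.0 and 74.2 with cytochalasin D, 48.1, 48.2, 48.5 and 49.8 with corpses, and 101, 99, 107 and 116 with both. The 4 groups did not overlap, and they ran from corpses through control and cytochalasin D to the combination. Corpses alone lowered Snx18 (log2 fold change -0.25 ± 0.06 SE, edgeR adjusted p = 0.00444, 1.19-fold), and cytochalasin D alone raised it (0.31 ± 0.06, adjusted p = 0.000132, 1.24-fold). With cytochalasin D present, corpses raised it 1.47-fold (0.56 ± 0.05, adjusted p = 2.98e-07). Cytochalasin D in the presence of corpses raised it 2.18-fold (1.12 ± 0.06, adjusted p = 1.8e-13). The change with corpses thus had opposite signs without and with the drug, and the difference between both effects was 0.81 ± 0.08 on the log2 scale (edgeR adjusted p = 1.7e-06). It ranged from 0.74 to 0.84 under the 24 other settings tried and was past the threshold in each of them.

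Snx33, of the same SNX9 family, moved with the drug too but not in the same way with corpses. Snx33 was at 52.5, 52.0, 51.7 and 51.3 CPM in control, at 85.5, 81.3, 84.9 and 85.1 with cytochalasin D, at 38.3, 45.2, 42.3 and 40.2 with corpses, and at 63.5, 59.6, 59.1 and 63.9 with both. No 2 of these groups overlapped, and cytochalasin D alone gave the highest level. The drug raised it 1.62-fold (log2 0.70 ± 0.05, edgeR adjusted p = 5.18e-10), the largest rise of the 56 genes in that comparison, and 1.48-fold with corpses present (0.57 ± 0.05, adjusted p = 2.22e-08). Corpses lowered it 1.25-fold without the drug (-0.32 ± 0.05, adjusted p = 0.00038) and 1.37-fold with it (-0.45 ± 0.05, adjusted p = 4.41e-06). The difference between both corpse effects was -0.13 with a 95% interval from -0.28 to 0.02 (edgeR adjusted p = 0.342). Snx9, the founding member, had the highest level per kilobase of the 3 in control, at 54.3 CPM per kb against 15.9 for Snx18 and 13.7 for Snx33. Its group means in the first experiment lay between 168 and 179 CPM and no comparison there called it.

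**Figure D2:**
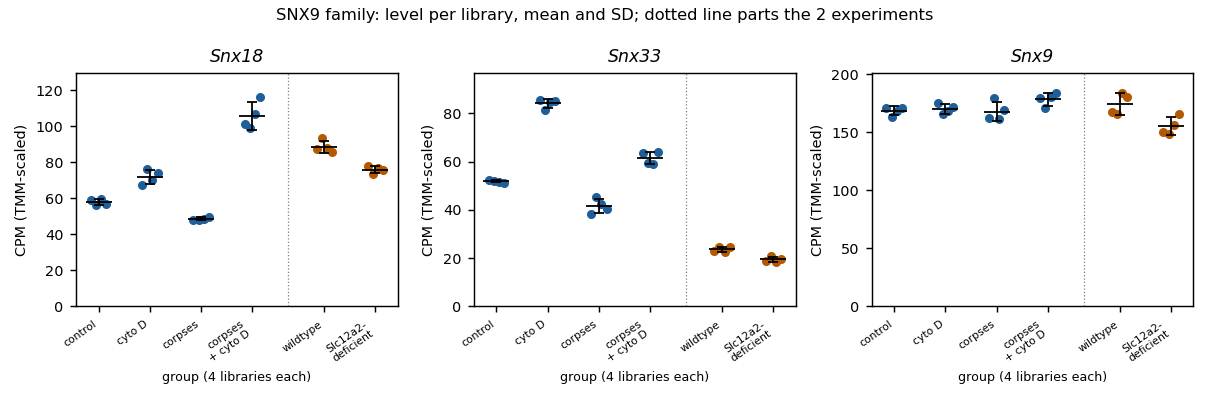
Level of Snx18, Snx33 and Snx9 in each of 24 libraries (CPM, TMM-scaled, vertical axis from 0) by group, with the mean and SD of 4 libraries. Snx18 is highest with corpses and cytochalasin D together (99 to 116 CPM), Snx33 with cytochalasin D alone (81.3 to 85.5 CPM), and Snx9 stays between 161 and 184 CPM in the first experiment.

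Retromer and the sorting nexins tied to it were called mainly in the comparison of cytochalasin D with none in the presence of corpses. Vps35, the large scaffold of retromer, was at 156, 158, 129 and 151 CPM with corpses and at 164, 180, 175 and 180 with corpses and drug, 2 groups that did not overlap. The drug raised Vps35 1.17-fold there (log2 0.23 ± 0.06, edgeR adjusted p = 0.00281), together with Vps26a (1.29-fold, adjusted p = 0.00173) and Vps29 (1.24-fold, adjusted p = 0.00133). Vps26b, the other form of the VPS26 subunit, went the other way: it was at 81.7, 84.9, 96.7 and 89.1 CPM with corpses and at 73.0, 73.2, 79.2 and 75.0 with both (1.17-fold lower, adjusted p = 0.00247). Without corpses the log2 fold changes of these 4 genes with the drug were 0.20 for Vps26a, -0.05 for Vps26b, 0.13 for Vps29 and -0.01 for Vps35, and none passed the test. Whether the drug's effect depended on corpses was tested by the difference of effects, which called none of the 4; its value was 0.24 for Vps35 (edgeR adjusted p = 0.0795), 0.16 for Vps26a, 0.18 for Vps29 and -0.18 for Vps26b. The unadjusted p was under 0.05 for Vps35 and Vps26b.

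Among the SNX-BAR partners of retromer, Snx5 rose from 133, 141, 126 and 136 CPM with corpses to 158, 151, 172 and 170 with both, a 1.21-fold change (log2 0.28 ± 0.05, edgeR adjusted p = 0.00015). Snx6 rose 1.28-fold (0.36 ± 0.09, adjusted p = 0.00261) in the same comparison and Snx2 was not called (0.12 ± 0.07, adjusted p = 0.235). Snx1 rose 1.11-fold (adjusted p = 0.0344), a call lost when any of 7 of the 8 libraries was left out (adjusted p up to 0.103; all but corpses 1). Snx5 was also among the genes whose corpse effect differed with the drug (0.30 ± 0.07, adjusted p = 0.0206). That call was lost without control 1, cytochalasin D 1 or 2, corpses 3, or the combination 3 or 4 (adjusted p from 0.0518 to 0.0614).

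Vps11, Vps18 and Vps33a, core subunits shared by HOPS and CORVET, rose with cytochalasin D whether or not corpses were present. Vps11 was at 148, 155, 147 and 166 CPM in control and at 213, 207, 213 and 201 with the drug, and at 133, 134, 142 and 140 with corpses against 186, 178, 183 and 199 with both. The drug groups lay above the groups without it in both settings, and the fold change was 1.36 in each (log2 0.44 ± 0.05, edgeR adjusted p = 7.62e-08 without and 6.69e-08 with corpses). Vps18 rose from 46.6, 49.2, 49.2 and 49.5 CPM to 66.8, 65.6, 69.8 and 58.3 without corpses (1.34-fold, adjusted p = 9.14e-06) and 1.29-fold with them (adjusted p = 4.77e-05). Vps33a rose 1.18-fold (adjusted p = 0.000855) and 1.14-fold (adjusted p = 0.00596). Vps39, found in HOPS alone, rose 1.12-fold without corpses (adjusted p = 0.0124; 0.0773 without the 3 libraries at the ends of the third principal component) and 1.13-fold with them (adjusted p = 0.00587), and Vps41, its HOPS partner, rose 1.17-fold with corpses (adjusted p = 0.00414). Of 7 HOPS and CORVET genes, 5 rose without corpses (13.5% of all genes did) and 6 with them (16.4% of all genes). Vps16 was among the former (1.13-fold, adjusted p = 0.046). Its call was lost without any of the 8 libraries but control 3 (adjusted p from 0.0622 to 0.143). DESeq2, RLE factors and the fit without the 3 libraries that stood apart lost it as well (0.052 to 0.1). Vps8 was among the latter (1.16-fold, adjusted p = 0.0155), at 0.052 without the combination 1 and 0.0576 after removal of the trend with length. The difference of effects was between -0.13 and 0.17 for these 7 on the log2 scale. Vps33b, of the related CHEVI tether, had log2 fold changes of 0.05 and 0.07 and was not called. Corpses alone lowered Vps11 1.12-fold (adjusted p = 0.0198), a call lost without control 4 (adjusted p = 0.0816).

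**Figure D3:**
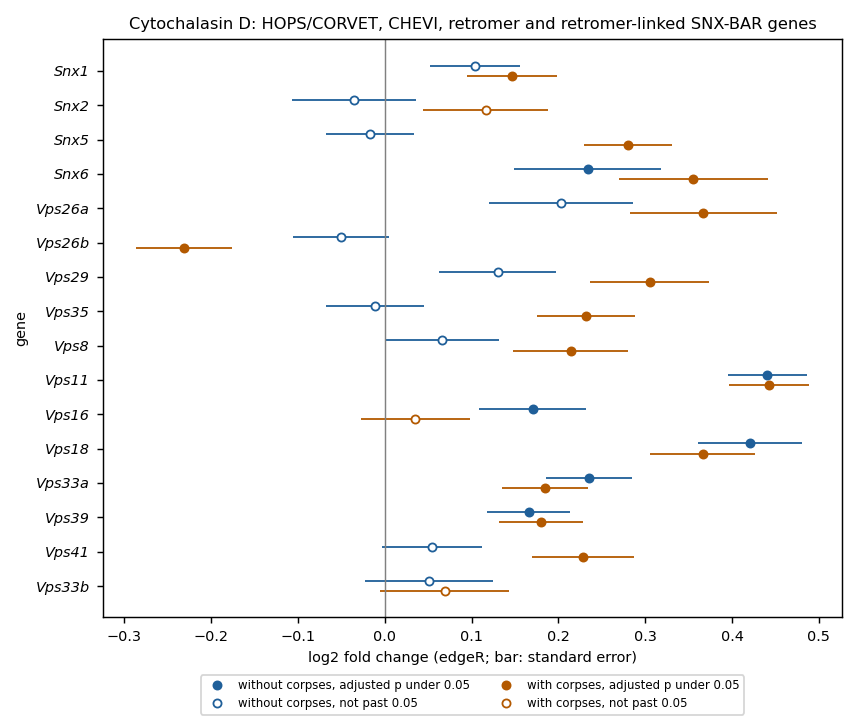
Log2 fold change with cytochalasin D (points, edgeR; bars, standard error) without corpses (blue) and with corpses (orange) for 16 genes of retromer, its SNX-BAR partners, HOPS, CORVET and CHEVI; filled points have an adjusted p under 0.05. Vps11 lies at 0.44 in both settings, and Vps26b at -0.23 is the 1 filled point left of 0.

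The 4 forms of VPS37, interchangeable subunits of ESCRT-I, differed among themselves. Vps37b was higher with corpses and higher with the drug: 86.5, 103, 85.7 and 92.4 CPM in control, 139, 139, 132 and 117 with cytochalasin D, 108, 114, 122 and 111 with corpses, and 171, 176, 161 and 159 with both. None of the 4 pairs of groups compared overlapped, and the combination was highest. Corpses raised it 1.24-fold alone (log2 0.31 ± 0.06, edgeR adjusted p = 0.00181) and 1.27-fold on top of the drug (0.34 ± 0.06, adjusted p = 0.000702). The drug raised it 1.43-fold alone (adjusted p = 8.61e-07) and 1.46-fold with corpses (adjusted p = 2.32e-07). The difference of effects was near 0, at 0.03, and was not called. Vps37b was the 1 member called higher with corpses alone, where 6.97% of all genes were higher and 6.68% lower.

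Vps37c followed the drug but not the corpses upward: it was at 72.3, 81.5, 86.1 and 82.0 CPM in control and 112, 105, 101 and 103 with cytochalasin D (1.31-fold higher, edgeR adjusted p = 9.49e-06), and rose 1.22-fold with corpses present (adjusted p = 0.000454). Vps37a was at 14.2, 16.7, 15.5 and 14.8 CPM with corpses and 18.5, 21.3, 18.8 and 23.3 with both (1.33-fold higher, adjusted p = 0.00378). Its difference of corpse effects was 0.60 ± 0.15 on the log2 scale (adjusted p = 0.0221), lost without control 1, cytochalasin D 1 or the combination 4 (adjusted p from 0.0549 to 0.0608). Vps37d, the rarest form, fell 1.51-fold with the drug in the presence of corpses, from 5.05, 3.85, 4.36 and 4.52 to 3.64, 3.31, 2.53 and 2.23 CPM (adjusted p = 0.0257). That call was lost without corpses 1, or the combination 3 or 4 (adjusted p from 0.065 to 0.0916). In CPM per kb of exon, control phagocytes held 36.9 of Vps37b, 29.5 of Vps37c, 12.8 of Vps37a and 2.44 of Vps37d.

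**Figure D4:**
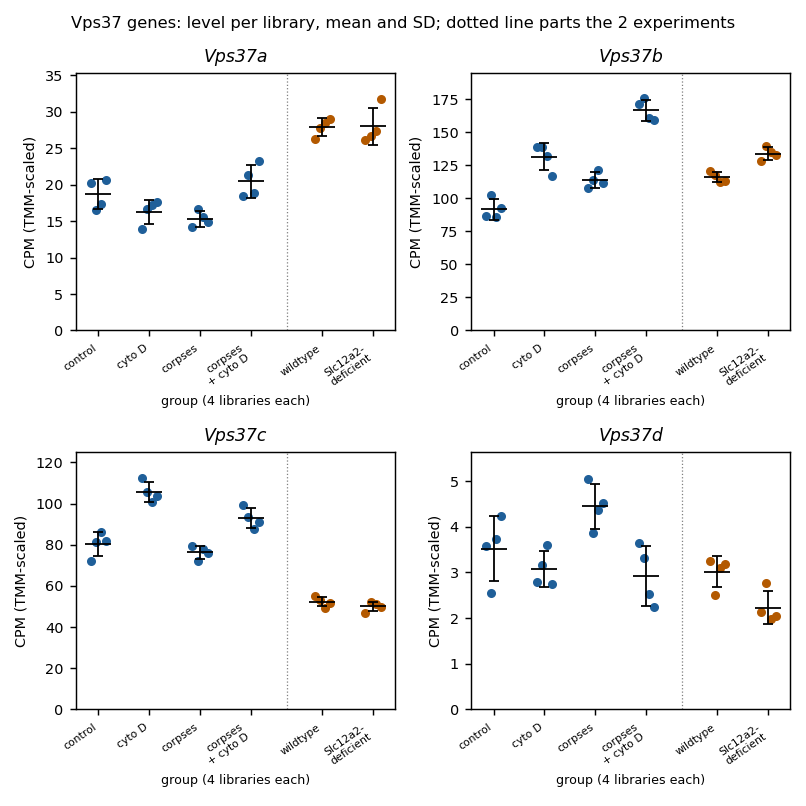
Level of the 4 Vps37 genes in each of 24 libraries (CPM, TMM-scaled, vertical axes from 0) by group, with the mean and SD of 4 libraries. Vps37b climbs from 85.7 to 103 CPM in control to 159 to 176 CPM with corpses and cytochalasin D, while Vps37d is lower with both (2.23 to 3.64 CPM) than with corpses alone (3.85 to 5.05 CPM).

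Vps4b, 1 of 2 genes for the ATPase that recycles ESCRT-III, rose with the drug in the presence of corpses, from 70.1, 66.8, 58.9 and 68.2 to 85.2, 88.8, 87.6 and 87.4 CPM (1.32-fold, edgeR adjusted p = 1.45e-05), while Vps4a had a log2 fold change of 0.01 there. Vps25 and Vps36 of ESCRT-II and Vps28 of ESCRT-I were not called with the drug, with log2 values from -0.10 to 0.19 without corpses and from 0.01 to 0.07 with them.

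The sorting nexins lowered by corpses alone came from several families. Snx16, a PX and coiled-coil nexin of early and recycling endosomes, had the largest fall: 37.0, 32.2, 33.0 and 38.6 CPM in control against 26.1, 25.1, 24.2 and 27.4 with corpses (1.37-fold lower, log2 -0.45 ± 0.09, edgeR adjusted p = 0.00226). Snx29 was at 20.5, 21.9, 23.1 and 23.2 CPM against 16.9, 17.3, 14.9 and 16.9 (1.34-fold lower, adjusted p = 0.0109). Snx7, which pairs with Snx4 in recycling and autophagy, was at 31.6, 30.7, 29.8 and 33.8 against 26.1, 22.5, 22.7 and 26.0 (1.29-fold lower, adjusted p = 0.00254). All 3 were lower in every corpse library than in any control library. Snx30, the other partner of Snx4, fell 1.16-fold (98.5 ± 4.88 to 85.1 ± 1.11 CPM, adjusted p = 0.0023), and Snx4 itself was not called (-0.10 ± 0.05, adjusted p = 0.171). With Snx18 and Snx33 these 4 make 6 of 25 Snx genes that fell, where 6.68% of all genes fell. With cytochalasin D present, the corpse effect on Snx16, Snx7, Snx30 and Snx29 was 0.09, 0.01, -0.04 and -0.11 on the log2 scale, and none was called. The difference was called for Snx16 (0.54 ± 0.13, adjusted p = 0.0232) and lost without control 1, cytochalasin D 1 or 2, corpses 3, or the combination 3 or 4 (adjusted p from 0.0522 to 0.0591). It was not called for Snx7 (0.38 ± 0.11, adjusted p = 0.0504), Snx30 (0.17 ± 0.06, adjusted p = 0.112) or Snx29 (0.31 ± 0.15, adjusted p = 0.241). Across all genes tested, the log2 fold change with corpses was lower for longer transcripts (Spearman rho -0.256 over 13106 genes, which are not independent replicates). The calls of Snx16, Snx29, Snx7 and Snx30 held after each library's trend with length was removed. For the drug in the presence of corpses, and for the difference of corpse effects, log2 values were higher for longer transcripts (rho 0.143 and 0.195). In the remaining comparisons rho lay between -0.0477 and 0.00909.

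Vps4b and Vps8 were the other members called lower with corpses. Vps4b fell 1.14-fold (edgeR adjusted p = 0.0412), a call lost without control 1, 3 or 4 or corpses 2, 3 or 4 (adjusted p from 0.0598 to 0.169). Vps8, the CORVET subunit that binds Rab5, fell 1.15-fold (adjusted p = 0.0433), lost without control 1, 2 or 4 or corpses 1, 2 or 4 (adjusted p from 0.057 to 0.165). The call of Vps8 was also lost under 4 other settings, removal of the trend with length among them (adjusted p from 0.0551 to 0.16).

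Cytochalasin D alone also raised Snx8, Snx11 and Vps72 and lowered Snx25. Snx11, a PX-only nexin, rose from 27.3, 26.1, 30.6 and 27.8 to 35.5, 34.2, 35.5 and 36.5 CPM (1.27-fold, edgeR adjusted p = 0.000931) and Snx8, a SNX-BAR protein of endosome-to-Golgi transport, rose 1.22-fold (90.8 ± 6.12 to 110 ± 10.4 CPM, adjusted p = 0.00229). The groups of Snx11 did not overlap, while those of Snx8 did. Snx25, of the group with PXA and RGS domains, went from 25.3, 23.7, 22.3 and 24 down to 18.6, 19.2, 17.7 and 17.7 CPM without overlap (1.30-fold lower, adjusted p = 0.00037). Vps72, in spite of its name a subunit of chromatin remodelling complexes, rose 1.25-fold (35 ± 1.90 to 43.7 ± 2.60 CPM, adjusted p = 0.00579). In the presence of corpses the drug again raised Snx11 (1.24-fold), Snx8 (1.19-fold) and Vps72 (1.27-fold), and Snx25 had a log2 fold change of -0.08. Snx21, at 12.1, 13.6, 15.0 and 15.3 CPM in control, rose 1.39-fold to 21.6, 22.8, 17.4 and 15.5 (adjusted p = 0.0153), a call lost without control 1 or cytochalasin D 1 or 2 (adjusted p from 0.0525 to 0.0776).

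On top of cytochalasin D, corpses raised Snx18, Vps37b, Snx25, Vps35 and Snx5 and lowered Snx33, Vps11 and Vps37c. Snx25 rose 1.22-fold (edgeR adjusted p = 0.0186), a call lost without cytochalasin D 3 or the combination 4 (adjusted p = 0.0554 and 0.0635). Snx5 rose 1.14-fold (adjusted p = 0.0214), lost without cytochalasin D 1, 2 or 3 or the combination 3 or 4 (0.0511 to 0.0912), and Vps35 rose 1.15-fold (adjusted p = 0.0254), lost without cytochalasin D 1, 2 or 3 or the combination 2, 3 or 4 (0.0615 to 0.0871). Vps11 fell 1.12-fold (adjusted p = 0.0264), lost without cytochalasin D 1 or 3 or the combination 2 or 3 (0.0611 to 0.0779). Vps37c fell 1.13-fold (adjusted p = 0.0449), lost without cytochalasin D 1, 2 or 3 or the combination 2, 3 or 4 (0.0511 to 0.156). Vps37c also lost its call under 4 other settings, limma-voom among them (up to 0.251), and Snx25 under 3 (up to 0.0985). Without the 3 libraries that stood apart, Snx5 and Vps35 lost theirs (0.161 and 0.169).

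The remaining calls of cytochalasin D alone were small. Vps53 of GARP and EARP rose 1.19-fold (edgeR adjusted p = 0.0113). Vps4a rose 1.14-fold (adjusted p = 0.0195; lost without control 4 or cytochalasin D 2, 0.0757 at most), Vps13d 1.15-fold (adjusted p = 0.0278; lost without control 1 or 3 or cytochalasin D 3, 0.131 at most), Vps4b 1.12-fold (adjusted p = 0.0421) and Snx6 1.18-fold (adjusted p = 0.0446). The calls of Vps4b and Snx6 were lost without control 2, 3 or 4 or cytochalasin D 2, 3 or 4 (up to 0.203 and 0.16). Snx16 fell 1.21-fold (adjusted p = 0.0328), lost without control 1 or 4 or cytochalasin D 1, 2 or 3 (up to 0.121). Vps13a fell 1.26-fold (adjusted p = 0.016), lost without cytochalasin D 1 or 3 (up to 0.0608). Vps4b and Snx6 each also lost their call under 4 other settings (0.0527 to 0.0668 and 0.056 to 0.0685). Vps13d and Snx16 each lost it under 2 (up to 0.0893 and 0.171). Without the 3 libraries that stood apart, Vps4a and Vps13a lost theirs (0.0673 and 0.1).

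In the presence of corpses the drug also raised Snx30 (1.15-fold, edgeR adjusted p = 0.00133), Snx7 (1.2-fold, adjusted p = 0.0128; 0.0637 without the combination 4) and Snx16 (1.2-fold, adjusted p = 0.0341), whose call was lost without corpses 1, 2 or 3 or the combination 3 or 4 (0.0589 to 0.125). Vps54 rose 1.16-fold (adjusted p = 0.0402), lost without any of the 8 libraries but the combination 1 (0.0539 to 0.129). Its call was also lost in limma-voom, after removal of the trend with length, and without the 3 libraries that stood apart (0.0548 to 0.0738). Snx17 fell 1.10-fold (adjusted p = 0.0209), lost without corpses 3 or the combination 4 (0.0874 and 0.0715). Without the 3 libraries that stood apart, Snx7, Snx16 and Snx17 also lost their calls (0.0562, 0.106 and 0.0786).

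With corpses present, cytochalasin D raised the transcripts of 2 large proteins of membrane contact sites. Vps13c, a lipid transporter between the endoplasmic reticulum and endosomes, rose from 90.1, 101, 87.5 and 95 to 118, 133, 120 and 128 CPM (1.33-fold, log2 0.42 ± 0.07, edgeR adjusted p = 9.16e-05). Snx13, which links the endoplasmic reticulum to lipid droplets and lysosomes, rose from 42.2, 47.5, 45.2 and 45.2 to 53.8, 59.5, 58.3 and 59.9 (1.28-fold, adjusted p = 0.000852). Neither pair of groups overlapped. Under the 17 other settings tried, the log2 fold change ran from 0.26 to 0.45 for Vps13c and from 0.28 to 0.39 for Snx13. Both calls held in each of them. For Vps13a and Vps54 of GARP the corpse effects differed with the drug by 0.53 ± 0.14 and 0.38 ± 0.11 on the log2 scale (adjusted p = 0.0342 and 0.0491). Vps13a lost that call without any 1 of 11 of the 16 libraries (all but control 2 and 3, cytochalasin D 4, corpses 2 and the combination 1; adjusted p from 0.0552 to 0.0846). Vps54 lost it without any 1 of 11 libraries (adjusted p from 0.0607 to 0.115). These were all but control 2 and 3, cytochalasin D 3 and 4 and the combination 1. Vps54 also lost it in limma-voom and after removal of the trend with length. In both genes cytochalasin D 1 was the lowest of its group, at 110 CPM for Vps13a, where the others were at 119 to 164, and at 42.5 for Vps54, where the others were at 48.9 to 56.7.

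Slc12a2-deficient engulfing phagocytes differed from wildtype ones at 23 of the 56 genes, 13 higher (21.1% of all genes were) and 10 lower (21.3%). The labels number the libraries 9 to 12 and 13 to 16, each set with 2 libraries of both genotypes, and all 23 differences had the same sign in both sets. The 23 genes were called on these same libraries, which favours equal signs in advance, so this agreement is no independent support. Vps11 and Vps8, which meet in the CORVET tether, moved apart. Vps11 was at 78.2, 86.1, 76.9 and 78.3 CPM in wildtype and 118, 124, 124 and 124 in deficient libraries (1.53-fold higher, log2 0.62 ± 0.05, edgeR adjusted p = 4.25e-08). Vps8 was at 44.7, 45.3, 42.4 and 43.7 against 33.1, 28.0, 31.4 and 33.7 (1.40-fold lower, -0.48 ± 0.06, adjusted p = 1.21e-05). Neither overlapped between genotypes. Vps39 rose 1.09-fold (adjusted p = 0.0439) and Vps18 fell 1.15-fold (adjusted p = 0.0282), and both calls were lost without single libraries: wildtype 3 or 4 or deficient 1 or 4 for Vps39 (adjusted p from 0.0573 to 0.144) and wildtype 2, 3 or 4 or deficient 1, 3 or 4 for Vps18 (0.0502 to 0.113).

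Vps13b, a VPS13 protein of the Golgi, had the largest change between genotypes. It was at 70.3, 71.1, 65.4 and 68.1 CPM in wildtype and 115, 85.6, 135 and 135 in deficient libraries, 1.71-fold higher (log2 0.77 ± 0.11, edgeR adjusted p = 2.87e-05). The groups did not overlap, but deficient library 2 stood below the other 3, and without it the log2 fold change was 0.90. The same library was the lowest of its group for Vps13a (369 CPM, others 505 to 538), Vps13c (149, others 196 to 208) and Vps13d (65.3, others 82.2 to 91.0). Vps13d fell 1.21-fold (log2 -0.27 ± 0.08, adjusted p = 0.0151), and by -0.17 without that library. Vps13a rose 1.19-fold (adjusted p = 0.0343), a call lost without wildtype 1, 2 or 4 or deficient 1, 3 or 4 (adjusted p from 0.0634 to 0.12). Vps13c was not called.

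Snx4, a SNX-BAR protein that recycles the transferrin receptor and serves autophagy, rose from 144, 138, 146 and 142 CPM in wildtype to 197, 189, 194 and 203 in deficient phagocytes (1.37-fold, log2 0.46 ± 0.04, edgeR adjusted p = 3.51e-07). Snx5 rose from 225, 230, 232 and 230 to 282, 280, 277 and 283 (1.22-fold, adjusted p = 1.84e-05). The genotypes did not overlap in either gene. Snx27, the PDZ nexin that hands cargo to retromer, rose 1.13-fold (236 ± 2.67 to 266 ± 7.64 CPM, adjusted p = 0.00231). The retromer genes Vps26a, Vps26b, Vps29 and Vps35 had log2 fold changes of 0.07, 0.13, -0.05 and 0.00 and were not called. Dscr3, the VPS26-like subunit of retriever, which the rule did not choose, rose 1.36-fold (adjusted p = 1.03e-05).

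All 3 members of the SNX9 family were lower in deficient phagocytes, where 21.3% of all genes were lower. Snx18 was at 87.2, 93.5, 88.0 and 85.9 CPM in wildtype and 78.1, 73.3, 76.6 and 75.5 in deficient libraries (1.17-fold lower, log2 -0.22 ± 0.05, edgeR adjusted p = 0.000914). Snx33 was at 22.9, 24.5, 22.7 and 24.6 against 18.7, 20.8, 18.6 and 19.8 (1.21-fold lower, -0.28 ± 0.06, adjusted p = 0.00222). These groups did not overlap, whereas Snx9 did, at 167, 166, 184 and 180 against 150, 148, 156 and 166 (1.12-fold lower, adjusted p = 0.014), a call lost without wildtype 3 or 4 (adjusted p = 0.0584 and 0.0515). Both VPS4 genes were lower as well, Vps4b 1.16-fold (adjusted p = 0.00365) and Vps4a 1.11-fold (adjusted p = 0.0128).

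Vps54 of GARP rose 1.27-fold, from 77.5, 78.4, 76.1 and 77.1 to 100, 86.9, 102 and 104 CPM (edgeR adjusted p = 0.000108). Vps9d1, with a domain found in activators of Rab5-type GTPases, rose 1.31-fold, from 10.9, 11.9, 11.6 and 12.3 to 14.3, 16.9, 14.5 and 15.5 (adjusted p = 0.000736). Vps37b rose 1.15-fold, from 121, 117, 113 and 113 to 128, 140, 135 and 133 (adjusted p = 0.00153), and Vps45, a partner of endosomal SNARE proteins, rose 1.17-fold (adjusted p = 0.0153). None of these 4 overlapped between genotypes. Snx29 fell 1.24-fold (adjusted p = 0.0106), lost without wildtype 2 (adjusted p = 0.0515). Snx3 rose 1.09-fold and Snx17 1.10-fold, with calls lost without wildtype 3 or 4 for Snx3 (adjusted p = 0.0778 and 0.0544) and without all but deficient 4 for Snx17 (adjusted p from 0.0529 to 0.0849). Vps37d fell 1.35-fold (adjusted p = 0.0301), lost without any library but wildtype 2 or deficient 2 (adjusted p from 0.0677 to 0.0947).

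**Figure D5:**
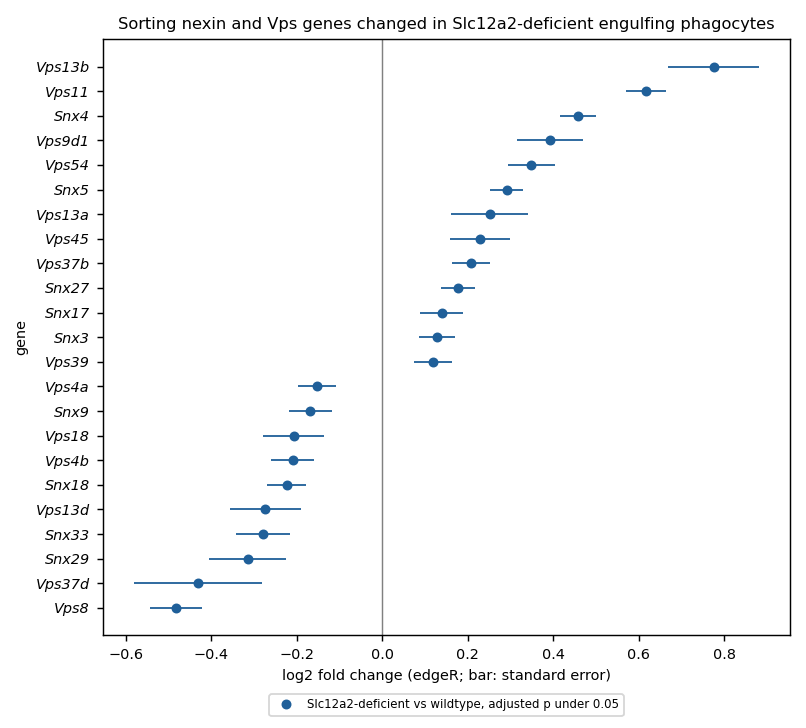
Log2 fold change between Slc12a2-deficient and wildtype engulfing phagocytes (points, edgeR; bars, standard error) for the 23 genes with an adjusted p under 0.05, from Vps13b at 0.77 to Vps8 at -0.48. Values above 0 are higher in deficient phagocytes.

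The genotype comparison shares no library with the first experiment, and 41.1% of the 56 genes and 42.5% of all genes were called in it. Of the 10 genes called with corpses alone and the 23 called between genotypes, 7 were common (70% of the first and 30.4% of the second list), and 6 of them moved in the same direction. Snx18, Snx29, Snx33, Vps4b and Vps8 were lower and Vps37b was higher in both, and Vps11 moved in opposite directions. Of the 21 genes called with cytochalasin D alone, 10 were also called between genotypes (47.6% and 43.5% of the lists), and 3 of these moved in the same direction. Corpses on top of the drug shared 5 called genes with the genotype comparison (62.5% and 21.7% of the lists), 3 in the same direction. The drug in the presence of corpses shared 12 (40% and 52.2%), 6 in the same direction. The overlaps and shared directions were not counted over all genes. Whether these genes overlap or agree more than other genes was therefore not tested.

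Partner genes of the same pathways were read against all genes, of which cytochalasin D alone raised 13.5% and changed 26.3% in either direction. The partner lists were chosen with earlier results of these data known, so the shares given here and below are descriptive and test nothing. With the drug alone, 12 of 25 partners of retromer and of the tethers rose and 1 fell (52% called), among them Dnajc13, an endosomal co-chaperone, at 1.29-fold (edgeR adjusted p = 9.6e-07). Of 11 subunits of the CCC complex, which recycles integrins with Snx17, 5 rose (45.5%), led by Ccdc22 (1.59-fold, 58.3 ± 3.61 to 92.7 ± 6.58 CPM, adjusted p = 1.11e-08) and Ccdc93 (1.39-fold, adjusted p = 1.21e-07). Of 19 ESCRT partners, 6 rose (31.6%), among them Stam, an ESCRT-0 subunit (1.28-fold, adjusted p = 0.000105). Cargo of these routes changed too: 9 of 16 rose and 1 fell (62.5% called), among those that rose the integrin Itga5 (1.52-fold), the mannose 6-phosphate receptor Igf2r (1.49-fold) and the glucose transporter Slc2a1 (1.41-fold). Among 21 endocytic partners of SNX9 and SNX18, 5 rose (23.8%, under the share of all genes), led by the Arp2/3 subunits Actr3 (1.47-fold, adjusted p = 1.96e-11) and Actr2 (1.40-fold, adjusted p = 1.2e-09). Of 13 genes of the class III PI3-kinase and of phosphoinositide turnover, 3 rose (23.1%).

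With corpses present, the drug raised 9 of 19 ESCRT partners, 6 of 11 CCC genes, 9 of 25 tether partners, 7 of 16 cargo genes and 10 of 21 endocytic partners, where 16.4% of all genes rose and 16.1% fell. It lowered 1 tether partner, Ehd1 (1.19-fold), and 1 endocytic partner, Atg9a (1.15-fold). The shares called in either direction were 47.4% of ESCRT partners, 54.5% of CCC genes, 40% of tether partners, 43.8% of cargo genes and 52.4% of endocytic partners, against 32.5% of all genes. Of the 13 PI3-kinase genes edgeR, DESeq2 and limma called 0 each, and 2 had an unadjusted edgeR p under 0.05. Stam, like Snx18, was lower with corpses alone (1.18-fold, edgeR adjusted p = 0.0123), higher with corpses on top of the drug (1.2-fold, adjusted p = 0.00765) and highest with both (94.9 ± 5.16 CPM against 51.9 ± 2.19 with corpses, 1.82-fold, adjusted p = 1.62e-10). The partners for which the difference of corpse effects was called included Stam (0.51 ± 0.09 on the log2 scale, adjusted p = 0.00173), the actin-nucleation factor Wasl (0.42 ± 0.11, adjusted p = 0.0379) and Itgb1 (0.17 ± 0.04, adjusted p = 0.0271).

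Between genotypes 42.5% of all genes were called, 21.1% higher and 21.3% lower. Ap2a1, an AP-2 adaptor subunit, was 2.36-fold lower in deficient phagocytes (244 ± 10.8 to 103 ± 5.6 CPM, edgeR adjusted p = 3.35e-11) and Dnm2, the dynamin that SNX9 and SNX18 bind, 1.92-fold lower (97.1 ± 6.86 to 50.6 ± 1.83 CPM, adjusted p = 1.88e-09). In the list of 20 endocytic partners tested, 5 were lower and 1, Arpc2, was higher (30% called, under the share of all genes). Of 19 ESCRT partners 4 were higher and 7 lower (57.9%), with Chmp3 1.90-fold higher (adjusted p = 3.89e-09) and Chmp1b 1.61-fold lower (adjusted p = 4.03e-06). Of 25 tether partners 8 were higher and 4 lower (48%), with the SNAREs Vamp8 (1.73-fold, adjusted p = 2.8e-06) and Vti1a (1.69-fold, adjusted p = 1.25e-06) among the higher. Of 16 cargo genes 62.5% were called: 2 were higher, the trans-Golgi protein Tgoln2 (1.64-fold) and the transferrin receptor Tfrc (1.25-fold), and 8 lower, among them Insr (1.49-fold) and Itga5 (1.41-fold, adjusted p = 2.94e-07). Of 11 CCC genes 2 were higher and 2 lower (36.4%), and of 13 PI3-kinase genes 1 was higher and 1 lower (15.4%).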

How the data were processed

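RNA of 24 LR73 libraries was read as 75-base pairs, and the authors deposited 1 table of raw fragment counts per gene for each of the 2 experiments. Per the file headers, featureCounts 1.5.0 counted read pairs with both ends aligned over exons grouped by gene name, with no strand option, so that overlapping genes on opposite strands cannot be told apart. Per the submitters' processing notes, FastQC, STAR, featureCounts and DESeq2 were used; the genome build is not given in the sources used here. A row with no gene name held at most 1.65% of the counts of a library and was left out. The members and the lists of partner genes were chosen with earlier results of these data known. Groups were taken from the labels.

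Counts were tested with edgeR 4.0.16 (R 4.3.3): TMM factors, filterByExpr with a minimum count of 10 and a minimum total of 15, and the quasi-likelihood F test, with 16 libraries in 1 fit for the first experiment and 8 for the second. P-values were adjusted by Benjamini and Hochberg over all genes tested (13106 and 13050), two-sided, and called under 0.05. Standard errors came from the log2 fold change and the F statistic. Intervals are 95%. The biological coefficient of variation was 7.04% and 6.06%. Values in every library are given for up to 8 members per direction and comparison, by the size of the change among those called, and for Snx18; of each partner list up to 3 genes per direction are named. The alternatives were DESeq2 1.42.0, limma 3.58.1 (voom), RLE factors, other filters, removal of the trend with gene length, the replicate number as a block, a fit on the compared libraries alone, and leaving out each library. A fit without 3 libraries and, for the genotypes, a block of library number sets were added after seeing the data. RefSeq symbols matched 59 of the 60 rows, all but Vps13b. Exons of Vps13a and Vps54 lay on 2 scaffolds each and those of Vps13d on 3. Promoter motifs were not analysed here. The result of 1 partner gene is not reported here.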

Additional observations from a re-analysis of the deposited data

Results flagged for a closer look

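The effect of corpses differed between phagocytes with and without cytochalasin D, by the test of the difference in edgeR, for Snx18 (0.81 on the log2 scale), Vps37a (0.60), Snx16 (0.54), Vps13a (0.53), Vps54 (0.38) and Snx5 (0.30). Corpses lowered Snx18 without the drug and raised it with the drug. Without the 3 libraries at the ends of the third principal component, Snx18 stayed past the threshold and the adjusted p of Vps37a, Snx16, Vps13a, Vps54 and Snx5 was 0.198, 0.175, 0.206, 0.286 and 0.166 in edgeR.

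Single libraries stood apart from the other 3 of their group in 4 of 105 pairs of gene and group, where chance alone gives about 5.25. Snx33 was at 81.3 CPM in cytochalasin D library 2 and Vps18 at 46.6 CPM in control library 1, each below its group. Vps11 was at 118 CPM in Slc12a2-deficient library 1, below its group, and at 86.1 CPM in wildtype library 2, above its group.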

How the results depend on the processing

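Counts of called genes among the 56 were 10 for corpses, 21 for cytochalasin D, 8 for corpses with the drug, 30 for the drug with corpses, 6 for the difference of corpse effects and 23 between genotypes. Without the 3 libraries that stood apart they fell to 4 for corpses with the drug and to 1 for the difference. Leaving out 1 library at a time gave 7 to 10, 15 to 23, 4 to 14, 25 to 29, 1 to 13 and 16 to 25, in the same order. For corpses with the drug it was 4 without cytochalasin D 1 or 3 or the combination 3 or 4, 5 without cytochalasin D 2 or the combination 2, and 14 without cytochalasin D 4. For the difference it was 1 without control 1, cytochalasin D 1 or the combination 4, 2 without cytochalasin D 2, corpses 3 or the combination 3, and 13 without cytochalasin D 4. Replicate numbers did not pair the libraries of the first experiment (correlations of deviations from -0.0555 to 0.227), and with the replicate number as a block the counts were 12, 20, 8, 29 and 9. The second experiment's library numbers, 9 to 12 and 13 to 16, form 2 sets that the labels do not call batches, but its second principal component (7.39% of the variance) separated them in both genotypes; with the set as a block, chosen after seeing the data, 26 genes were called, the 23 among them. Under the alternatives run, 7, 12, 3, 23, 1 and 15 genes kept their call throughout, and no called gene changed sign. Ranges of adjusted p given above for lost calls cover the libraries named, unless a setting is named. Some of these calls were also lost under other settings. With a threshold of 2 CPM there were 55 genes. The promoter motifs planned were not run. Depth limits Snx24 and Vps37d, the members with the fewest counts.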
